A study of Mus musculus with 2 samples.

Results

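The small ribosomal subunit proteins are the proteins that, with ribosomal RNA, make up the smaller part of the ribosome. The 29 protein-coding genes described here were taken by symbol from a list of small subunit proteins: Rpsa, Rps2, Rps3, Rps3a1, Rps4x, Rps6, Rps7, Rps9, Rps10, Rps12, Rps13, Rps14, Rps15, Rps15a, Rps16, Rps18, Rps19, Rps20, Rps21, Rps23, Rps24, Rps25, Rps26, Rps27, Rps27a, Rps27l, Rps28, Rps29 and Fau. All 29 were found among the 43346 genes of the deposited gene tables, with 116 transcripts in the transcript tables, and they lie on 14 chromosomes. Pseudogenes were not counted as members.

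The libraries come from G1E-ER4, an immortalized mouse erythroid cell line. Its endogenous Gata1 gene is disrupted, and the cells instead carry GATA1, an erythroid transcription factor, joined to the hormone-binding part of the estrogen receptor, which estradiol switches on. The cells had been kept for 3 h in 10 nM 17beta-estradiol, and polyadenylated RNA was sequenced in paired ends. There are 2 libraries of this 1 group, labelled biological replicates 1 and 2, and both carry 1 biosample record. Technical and biological differences between them cannot be told apart. The line is a cultured model, and no untreated library was analysed here, so every value is a level after estradiol and none is a response to it.

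The small subunit binds messenger RNA, scans to the start codon and reads codons, while the large subunit joins amino acids. Its proteins sit in a head, a body and a platform around the ribosomal RNA, and a finished ribosome holds a single copy of nearly all of them. Erythroid progenitors make much globin before they lose their ribosomes, and in humans a shortage of certain small subunit proteins causes Diamond-Blackfan anemia, a failure of red cell production.

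The libraries held 31126956 expected counts in replicate 1 and 57853617 in replicate 2, and a count of 0 allows up to 9.64e-06% and 5.19e-06% of these totals. They stood far apart. Of the 10635 genes with a summed count of at least 20, 80.4% differed by more than counting noise, and the counts of the libraries gave a chi-square of 679 per degree of freedom, so they are not 1 library deposited again. Each comparison between replicates therefore compares these libraries and not conditions. All 10 erythroid markers reached 1 TPM in both libraries, but their sum was 4381 TPM in the library of replicate 1 and 18019 TPM in that of replicate 2. Highest in replicate 2 were the globins Hbb-bs (863 TPM in replicate 1, 9484 TPM in replicate 2) and Hba-a1 (149 and 6606 TPM). Zfpm1 (2427 and 1438 TPM) and Klf1 (786 and 350.5 TPM) went the other way. The median of the 10 was 70.65 TPM in replicate 1 and 54.0 TPM in replicate 2. By more than counting noise, 3 were higher in replicate 1 and 6 in replicate 2, beside 37.2% and 43.1% of all tested genes. TPM is a transcript level per length, with a fixed sum over each library. Of other lineages, the platelet gene Gp5 was the most abundant marker, and the 6 megakaryocyte markers together had 160.4 TPM in replicate 1 and 84.5 TPM in replicate 2. The 6 mast cell and basophil markers summed to 14.0 and 12.4 TPM in replicates 1 and 2, and each of the granulocyte and monocyte, lymphocyte and fibroblast lists to at most 2.43 TPM. Ppbp, Fcer1a, Mcpt4, Lyz2, Cd3e, Cd4, Cd8a, Dcn, Pdgfra and Thy1 of these lists were listed at 0 in both libraries. Gata1 had 190.3 TPM in replicate 1 and 799 TPM in replicate 2, and reads of the fusion and of the disrupted gene cannot be told apart. The part of any of these differences in the results below was not tested, and in bulk RNA fewer cells of a type and less RNA per cell cannot be told apart.

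The small subunit genes were abundant, but their levels spanned 654-fold in replicate 1 and 1370-fold in replicate 2 (ratio of the highest to the lowest TPM). Their median level was 133 TPM in replicate 1 and 1286 TPM in replicate 2, against a median of 12.7 and 12.2 TPM over all tested genes in the same libraries. Together they held 2.97% of all TPM in replicate 1 and 7.25% in replicate 2 (5.11% ± 3.02, SD, n = 2). In replicate 1, 6 members exceeded 1000 TPM and 11 stayed below 100 TPM. In replicate 2, 17 exceeded 1000 TPM and 6 stayed below 100 TPM. The same 6 genes were above 1000 TPM in both libraries (Rps2, Rps10, Rps13, Rps14, Rps19 and Fau), and 5 were below 100 TPM in both (Rps3a1, Rps15a, Rps25, Rps27 and Rps27a). These are counts of whole genes alone. With near-identical copies added, 3 members were below 100 TPM in both libraries, without Rps3a1 and Rps25.

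**Figure D1:**
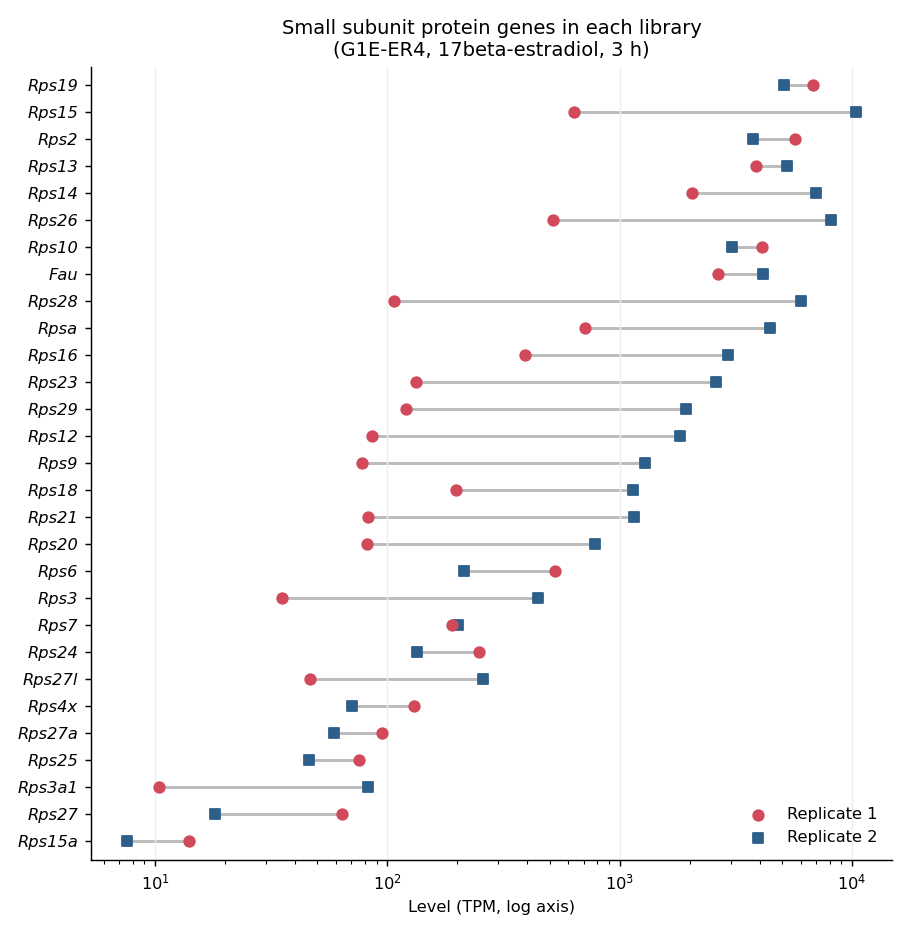
Level of each of the 29 small subunit genes in TPM (log axis) in replicate 1 (circles) and replicate 2 (squares), ordered by mean TPM with the highest at the top. Grey lines join the libraries; 16 lines run far to the right from replicate 1 to replicate 2, while Rps7 shows 191 and 201 TPM.

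The order of the members by mean TPM ran from Rps19, Rps15 and Rps2 at the top to Rps3a1, Rps27 and Rps15a at the bottom, as the plot of levels by gene shows. It holds for whole genes without near-identical copies. In protein-coding transcripts alone Rps19 had 389 TPM in replicate 1 and 440 TPM in replicate 2. With its copies added Rps3a1 had 143 TPM in replicate 1 and 448 TPM in replicate 2. Neighbours in the order by mean TPM could seldom be separated. Of 28 neighbouring pairs, 1 had levels that did not overlap between its genes over both libraries (Rps27 over Rps15a). Over all 406 pairs of members, 217 did not overlap and 306 stood in the same order in both libraries. Across the 29 members the levels of the libraries had a Spearman correlation of 0.70, against 0.89 across 49 large subunit genes and 0.92 across all 10635 tested genes. These are descriptions across genes, which are not independent replicates.

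All 29 members passed the filter of 20 summed counts, and all differed between the libraries by more than counting noise, where 80.4% of all tested genes did (two-sided exact conditional binomial test on expected counts, Benjamini-Hochberg adjustment over 10635 genes). The highest adjusted p among the members was 0.00646, for Rps27a. In replicate 1, 10 members were higher, beside 37.2% of all tested genes, and in replicate 2, 19 were higher, beside 43.1%. The members' direction was the same on the TPM scale and on counts scaled by library size. The sizes were far from those of other genes: 16 of the 29 members were at least 4-fold higher in replicate 2, and 6.97% of all tested genes were. At least 8-fold higher in replicate 2 were 12 members and 2.26% of all tested genes. In the other direction 1 member, Rps27, was at least 2-fold higher in replicate 1, where 7.17% of all tested genes were. With near-identical copies added, Rps27 was 2.01-fold higher, against 3.11-fold alone, and Rps25 also passed 2-fold. At least 4-fold higher in replicate 1 were 0 members, beside 1.1% of all tested genes, and at least 8-fold higher again 0 members, beside 0.517%. The median log2 ratio of scaled counts, replicate 1 over replicate 2, was -2.54 over the members and -0.06 over all tested genes.

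**Figure D2:**
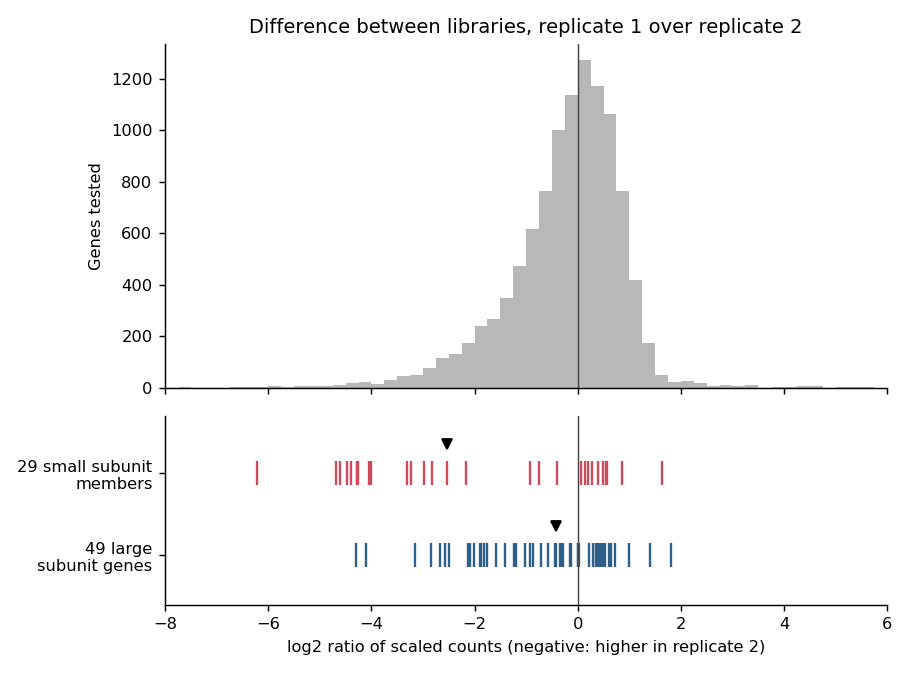
Histogram of the log2 ratio of scaled counts, replicate 1 over replicate 2, over the tested genes (top; 10 of 10635 lie beyond the axis), with the 29 members and the 49 large subunit genes as ticks below and their medians as triangles. The members fall into 16 at or below -2.16 and 13 at or above -0.93, and their median is -2.54.

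The ratios left a gap between Rps14, at -2.16, and Fau, at -0.93, with no member between them. On protein-coding transcripts alone Rps18 (-2.03), Rps2 (-1.80) and Rps16 (-1.73) fell between these values. With near-identical copies added Rps3a1 (-2.01) did, so the gap describes counts of whole genes without their copies. The 16 genes below the gap held 17.8% of the members' summed TPM in replicate 1 and 69.6% in replicate 2. In absolute terms the sum over the 16 genes was 5271 TPM in replicate 1 and 50423 TPM in replicate 2, while the other 13 together had 24415 TPM in replicate 1 and 22029.9 TPM in replicate 2. The 13 genes above the gap comprised 3 that were higher in replicate 2 (Rps7, Rps13 and Fau) and 10 that were higher in replicate 1. The members below the gap had coding sequences of 423 bases at the median, and those above it 456 bases. Each came from the most abundant coding transcript, with preference for a sequence from ATG to a stop codon. In some members, such as Rps14, it is not the leading transcript. The members were spread over 10 chromosomes in each set, and the 6 members on chromosome 7 lay on both sides of the gap. This split was made after the values were seen and has no test.

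Among the 12 proteins of the head, 8 genes were at least 4-fold higher in replicate 2, beside 6.97% of all tested genes. The median log2 ratio over the 12 was -3.62. Rps28, whose protein lies at the exit of the messenger RNA channel, showed the widest difference of all members. It had 107 TPM in replicate 1 and 6042 TPM in replicate 2, and its scaled counts were 74.5-fold higher in replicate 2. Rps15, which in human cells is needed to export small subunit precursors from the nucleus, had 633 TPM in replicate 1 and 10398.5 TPM in replicate 2 (19.5-fold higher in replicate 2 in scaled counts). That made Rps15 the highest member in replicate 2 and the 8th of the 29 in replicate 1.

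Rps29, a small zinc-binding protein of the head, had 120.1 TPM in replicate 1 and 1935 TPM in replicate 2. Rps12, a protein of the beak of the head, had 85.9 TPM in replicate 1 and 1814 TPM in replicate 2. Rps16, whose tail reaches the site that holds the peptide-carrying transfer RNA, had 391 TPM in replicate 1 and 2938 TPM in replicate 2. In all 3 the level in replicate 2 was well above that in replicate 1. Rps18, a head protein that contacts the large subunit, had 197 TPM in replicate 1 and 1138 TPM in replicate 2. Rps20 had 82.0 TPM in replicate 1 and 780.4 TPM in replicate 2. Rps3, which lines the entry of the messenger RNA channel, had 35.1 TPM in replicate 1 and 446 TPM in replicate 2. Over these 6 genes the scaled counts were 5.80-fold (Rps18) to 25.8-fold (Rps12) higher in replicate 2.

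The other 4 genes of the head were higher in replicate 1, each by less than 2-fold when the gene alone was counted. Rps19, the gene most often mutated in human Diamond-Blackfan anemia, had the highest mean of all members. It had 6784 TPM in replicate 1 and 5117 TPM in replicate 2 (5951 TPM ± 1179, SD, n = 2), and a log2 ratio of scaled counts of 0.07. Rps10, also mutated in the human disease, had 4076 TPM in replicate 1 and 3051 TPM in replicate 2. Rps25, which helps ribosomes to start on certain viral and cellular RNAs without a cap, had 75.6 TPM in replicate 1 and 46.2 TPM in replicate 2. Rps27a, made as a fusion of ubiquitin and a protein of the beak, had 94.9 TPM in replicate 1 and 58.7 TPM in replicate 2. Their scaled counts were 1.05-fold (Rps19) to 1.31-fold (Rps25) higher in replicate 1. With near-identical copies added, Rps25 was 2.11-fold higher in replicate 1, and on protein-coding transcripts alone Rps19 and Rps10 were higher in replicate 2 in scaled counts.

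Among the 17 members of the body and platform, 8 were at least 4-fold higher in replicate 2, beside 6.97% of all tested genes. The median log2 ratio over the 17 was -0.93, the value of Fau at the edge of the gap. Rps23, which sits at the decoding center, had 133 TPM in replicate 1 and 2609 TPM in replicate 2. Rps26, which contacts messenger RNA near the exit of its channel, had 518 TPM in replicate 1 and 8129 TPM in replicate 2. Rps9, a protein that binds ribosomal RNA early in assembly, had 77.7 TPM in replicate 1 and 1286 TPM in replicate 2. In scaled counts these 3 genes were 19.1-fold (Rps26) to 24.6-fold (Rps23) higher in replicate 2.

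Rps21, a small protein of the body, had 82.8 TPM in replicate 1 and 1148 TPM in replicate 2. Rpsa, which joins late and is also known as the laminin receptor precursor, had 706 TPM in replicate 1 and 4414 TPM in replicate 2. Rps14, whose loss contributes to the anemia of a human myelodysplastic syndrome, had 2045 TPM in replicate 1 and 7003 TPM in replicate 2. All 3 were higher in replicate 2, Rps14 by the smallest factor of the 16 genes (4.48-fold in scaled counts). Rps3a1, the mouse gene of a body protein, had 10.4 TPM in replicate 1 and 82.5 TPM in replicate 2. It was the lowest member in replicate 1 although its scaled counts were 9.93-fold higher in replicate 2 (4.03-fold with its copies added).

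Of the 9 other members of the body and platform, 3 were higher in replicate 2 by less than 2-fold. Rps13 had 3863 TPM in replicate 1 and 5237 TPM in replicate 2. Fau, made as a fusion of the ubiquitin-like protein Fubi and a small subunit protein, had 2647 TPM in replicate 1 and 4130 TPM in replicate 2. Rps7, which can bind the p53 regulator Mdm2, had 191 TPM in replicate 1 and 201 TPM in replicate 2 (196 TPM ± 7.62, SD, n = 2). The ratio of its TPM values was the closest to 1 among the members, and its log2 ratio of scaled counts was -0.41.

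The remaining 6 were higher in replicate 1. Rps2, which lies near the entry of the messenger RNA channel, had 5702 TPM in replicate 1 and 3745 TPM in replicate 2. Rps6, the protein that S6 kinases phosphorylate, had 525 TPM in replicate 1 and 214 TPM in replicate 2. Rps24, mutated in the human anemia, had 249 TPM in replicate 1 and 134 TPM in replicate 2. These genes differed by 1.21-fold to 1.82-fold in scaled counts, and Rps2 was higher in replicate 2 on protein-coding transcripts alone. Rps4x, which is X-linked and has a second, Y-linked gene in humans, had 130.3 TPM in replicate 1 and 70.6 TPM in replicate 2. Rps15a had 14.1 TPM in replicate 1 and 7.59 TPM in replicate 2, the lowest mean of all members (10.8 TPM ± 4.57, SD, n = 2). Rps27 was 3.11-fold higher in replicate 1 in scaled counts and is described next to its paralog.

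The 9 members that are genes of human Diamond-Blackfan anemia (Rps7, Rps10, Rps15a, Rps19, Rps24, Rps26, Rps27, Rps28 and Rps29) took both directions. Of these 9, 5 were higher in replicate 1 and 4 in replicate 2, and 3 were at least 4-fold higher in replicate 2, beside 37.2%, 43.1% and 6.97% of all tested genes. On protein-coding transcripts alone the counts were 3 higher in replicate 1 and 6 in replicate 2, since Rps10 and Rps19 turned. Their mean TPM covered the whole range of the members, with both Rps19, the highest, and Rps15a, the lowest.

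Rps27 and Rps27l are paralogs whose proteins take the same place, and Rps27l is a target of p53 in human cells. Rps27 had 63.9 TPM in replicate 1 and 18.2 TPM in replicate 2. Rps27l had 46.3 TPM in replicate 1 and 258 TPM in replicate 2, so the order of the pair differed between the libraries. The log2 ratio of Rps27 over Rps27l on the TPM scale was 0.46 in replicate 1 and -3.83 in replicate 2 (-1.68 ± 3.04, SD, n = 2). Their coding sequences, both 255 bases with the stop codon, differ at 61 positions and share 76.1% of bases, so fragments that cover such positions differ between the genes. They are shown because the pair changes order, with the differing bases in capitals. Rps27 is at chr3:90212522-90213651 on the minus strand and Rps27l at chr9:66946086-66949516 on the plus strand of GRCm38.
Rps27: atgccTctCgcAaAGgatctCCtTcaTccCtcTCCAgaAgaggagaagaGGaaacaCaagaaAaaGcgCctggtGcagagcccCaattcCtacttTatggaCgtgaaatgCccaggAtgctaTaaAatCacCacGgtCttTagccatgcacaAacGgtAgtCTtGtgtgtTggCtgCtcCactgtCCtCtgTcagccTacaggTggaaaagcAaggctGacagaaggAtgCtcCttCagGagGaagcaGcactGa
Rps27l: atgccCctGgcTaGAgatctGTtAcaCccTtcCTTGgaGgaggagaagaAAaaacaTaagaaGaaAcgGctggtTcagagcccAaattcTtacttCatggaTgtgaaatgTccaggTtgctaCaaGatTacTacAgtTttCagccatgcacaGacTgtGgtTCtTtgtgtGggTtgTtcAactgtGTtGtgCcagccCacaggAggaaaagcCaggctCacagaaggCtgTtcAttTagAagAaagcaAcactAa

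The gene model of Rps27 in the deposited tables is 255 bases long, the length of its coding sequence alone, and its effective length, the number of places where a fragment can start, was 119 bases in replicate 1 and 103 bases in replicate 2. Its TPM rested on 188 expected counts in replicate 1 and 98.0 in replicate 2, the fewest summed counts of the members. Rps20 has the opposite feature. Its leading transcript in replicate 2, Rps20-203, is 3706 bases long in the tables for a coding sequence of 360 bases, and 143273 expected counts in replicate 2 gave 780.4 TPM. How the length of a gene model moves TPM was not tested.

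Many members have near-identical copies elsewhere in the genome, mostly processed pseudogenes, and reads can be divided between a gene and its copies. A search with the coding sequences of the 29 members found 205 copies with at least 90% identity over at least 50% of the coding sequence, for 27 of the members. Rps3 and Rps9 had none. Identity and coverage depend on the coding sequence chosen for a member. For Rps18 it had 324 bases and came from Rps18-206, with 4.14% of the TPM of Rps18 in replicate 1 and 2.11% in replicate 2. Of the 205 entries, 5 match on the opposite strand, among them the Mediator gene Med21 under Rps26, and these 5 held 39 expected counts in replicate 1 and 48 in replicate 2. Any expected count was given to 101 of the 205. Over all members together, copies held 10.2% of the summed expected counts in replicate 1 and 2.44% in replicate 2 (2.43% in replicate 2 without the 5), and for 10 members they held under 1% in both libraries.

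For Rps3a1 and Rps25 the copies held more counts than the gene itself in both libraries. Rps3a1 had 216 expected counts in replicate 1 and 3565 in replicate 2, while its copies had 2168 in replicate 1 and 12302 in replicate 2, which is 90.9% and 77.5% of the sum. Rps3a3, on chromosome 13, held most of them in replicate 2 (11978). Rps25 had 1024 expected counts in replicate 1 and 1285 in replicate 2, while its copies had 2352 in replicate 1 and 1356 in replicate 2. Nearly all of these were on Rps25-ps1, a processed pseudogene. With the copies added, Rps3a1 had 143 TPM in replicate 1 and 448 TPM in replicate 2, and Rps25 had 468 TPM in replicate 1 and 161 TPM in replicate 2. The levels of these 2 genes on their own are therefore uncertain.

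The coding sequence of Rps25 and the matching stretch of Rps25-ps1 are shown because they carry this uncertainty. They differ at 4 of 378 bases (98.9% identity). The first 200 bases of each are given, which hold all 4 differences, in capitals. Rps25 is at chr9:44407139-44410427 and the stretch of Rps25-ps1 at chr6:145266400-145266777, both on the plus strand of GRCm38. Within this stretch, a fragment that covers none of the 4 bases has the same sequence in both.
Rps25: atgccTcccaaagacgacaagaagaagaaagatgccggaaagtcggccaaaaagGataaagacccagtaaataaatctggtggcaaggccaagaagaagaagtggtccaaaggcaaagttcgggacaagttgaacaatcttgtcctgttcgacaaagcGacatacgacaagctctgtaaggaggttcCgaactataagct
Rps25-ps1: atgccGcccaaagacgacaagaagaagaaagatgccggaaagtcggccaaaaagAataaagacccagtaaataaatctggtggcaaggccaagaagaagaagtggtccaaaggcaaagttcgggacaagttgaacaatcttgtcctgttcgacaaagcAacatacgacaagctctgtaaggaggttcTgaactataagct

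Rps10 and Rps27 also shared a large part of their counts. Rps10-ps2, 99.0% identical, held 25865 expected counts in replicate 1 and 9858 in replicate 2, beside 42183 and 60312 on Rps10 in replicates 1 and 2. The copies of Rps10 thus held 38.3% of the sum in replicate 1 and 14.6% in replicate 2. Rps27rt, a copy of Rps27 with the same coding sequence, held 12.6% of the sum in replicate 1 and 44.0% in replicate 2. For Rps12 the copies held 19.2% in replicate 1 and 1.92% in replicate 2, and for Rps7 they held 12.4% in replicate 1 and 12.8% in replicate 2. Adding the copies to the members reversed none of the 29 directions and gave a median log2 ratio of -2.17, with 16 members at least 4-fold higher in replicate 2.

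**Figure D3:**
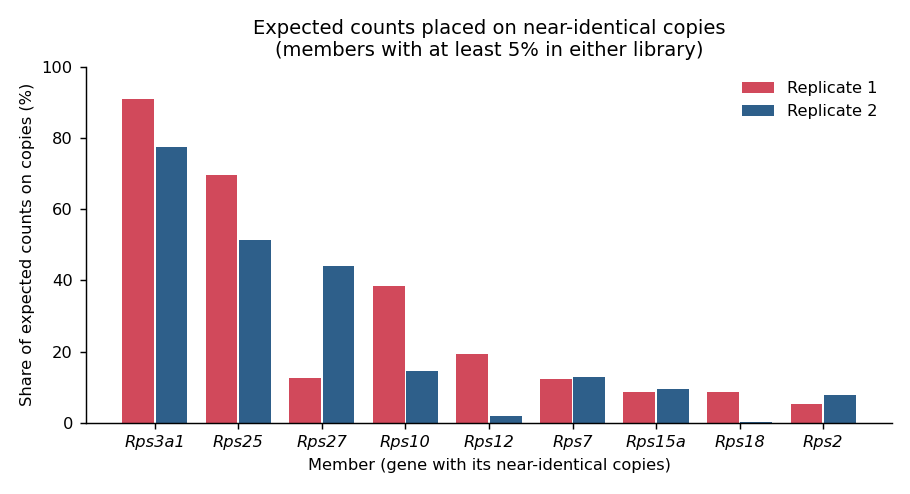
Share of expected counts on near-identical copies, as percent of the gene and its copies together, in replicate 1 (left bars) and replicate 2 (right bars), for the 9 members at 5% or more in either library. Rps3a1 and Rps25 exceed 50% in both libraries, and Rps27 alone of the first 5 is higher in replicate 2.

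The transcript tables split each gene's TPM between its annotated transcripts. In 9 members a single transcript was annotated, and in 14 the leading transcript held over 95% in both libraries. The leading transcript was the same in both libraries for 25 members and differed for Rps2, Rps16, Rps20 and Rps27a. In 9 members over 10% of the TPM lay on transcripts outside the protein-coding class in at least 1 library. These counts were not made over all genes, so whether the members differ from other genes in them is not known. Of Rps24, whose human gene has splice forms that differ at the end of the protein, Rps24-202 held 100% of the TPM in both libraries.

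Rps2 showed the widest shift. Rps2-204, annotated as a retained intron, held 75.6% of its TPM in replicate 1 (4308 TPM) and 0.01% in replicate 2 (0.51 TPM). The protein-coding Rps2-206 held 5.07% in replicate 1 and 71.7% in replicate 2. In protein-coding transcripts alone Rps2 had 1304 TPM in replicate 1 and 3690 TPM in replicate 2, the opposite order from the gene as a whole. Of the bases of Rps2-204, 74.9% lie in exons of the protein-coding transcripts, and 242 bases lie outside them.

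Rps16 and Rps20 shifted in opposite ways. The retained-intron transcript Rps16-202 held 33.4% of the TPM of Rps16 in replicate 1 and 80.4% in replicate 2, where the protein-coding Rps16-201 led in replicate 1 with 55.1%. The retained-intron transcript Rps20-201 led in replicate 1 with 52.5% and held 1.48% in replicate 2, where Rps20-203 held 98.4%. In Rps27a both leading transcripts are protein-coding: Rps27a-201 held 66.1% in replicate 1 and 9.82% in replicate 2, and Rps27a-202 held 29.7% in replicate 1 and 87.5% in replicate 2. Rps9-210, annotated as a target of nonsense-mediated decay, held 8.48% of the TPM of Rps9 in replicate 1 and 35.5% in replicate 2. Of the bases of Rps9-210, 100% lie in exons of the protein-coding transcripts, so this split is an estimate of the quantification. The leading transcript of Rps9 in both libraries was the protein-coding Rps9-201, with 88.0% in replicate 1 and 63.6% in replicate 2.

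Rps19 and Rps18 lay almost wholly outside the protein-coding class in both libraries. Rps19-206, annotated as a retained intron with 395 bases in 3 exons, held 94.0% of the TPM of Rps19 in replicate 1 and 91.0% in replicate 2. In protein-coding transcripts Rps19 had 389 TPM in replicate 1 and 440 TPM in replicate 2. Rps18 had 8.16 TPM in replicate 1 and 26.9 TPM in replicate 2 in that class. Rps18-209, a processed transcript, held 58.5% of the TPM of Rps18 in replicate 1 and 52.8% in replicate 2. Of their bases, 76.7% (Rps19-206) and 93.3% (Rps18-209) lie in exons of the protein-coding transcripts. A read within those exons cannot by itself tell the transcripts apart, so the split between classes is the estimate of the authors' quantification and not a count of reads with introns.

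Smaller shares varied as well. Rps28-203 led in both libraries, with 48.0% in replicate 1 and 96.0% in replicate 2. Rps15a-205 held 63.1% in replicate 1 and 36.2% in replicate 2. Rps6-201 held 62.9% in replicate 1 and 72.7% in replicate 2, and Rps10-208 held 78.0% in replicate 1 and 76.6% in replicate 2. Rps27l-201 led in both libraries, with 95.9% in replicate 1 and 79.0% in replicate 2. In scaled counts of protein-coding transcripts alone, Rps2 (log2 ratio -1.80), Rps19 (-0.60) and Rps10 (-0.10) were higher in replicate 2 and the other members kept their direction. For Rps10 this depends on the scale, since its protein-coding transcripts had 3608 TPM in replicate 1 and 3023 TPM in replicate 2. Rps16 was then 3.31-fold higher in replicate 2, against 9.42-fold over all its transcripts.

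**Figure D4:**
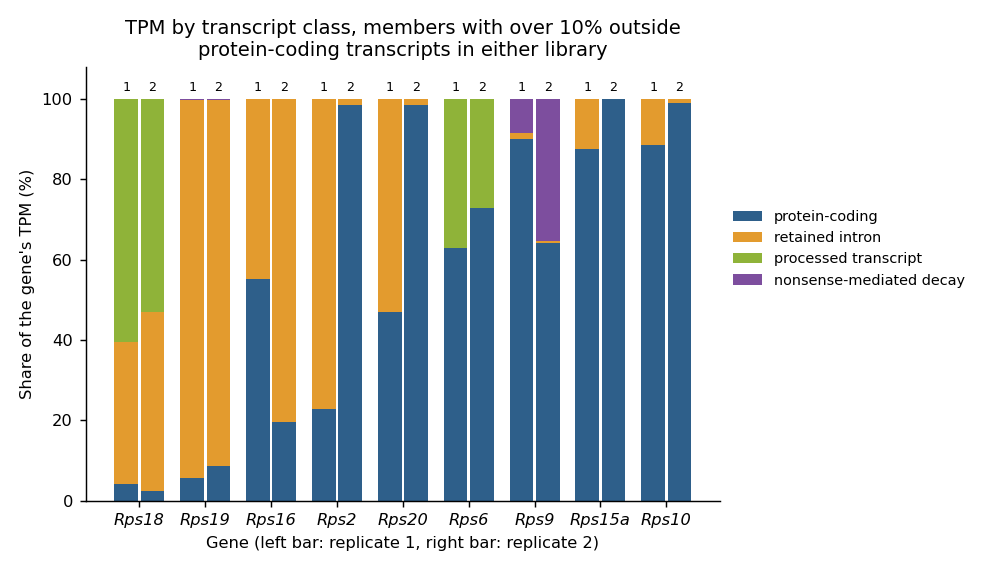
Share of each gene's TPM by annotated transcript class in replicate 1 (left bars) and replicate 2 (right bars), for the 9 members with over 10% outside protein-coding transcripts in either library. Rps18 and Rps19 stay below 10% protein-coding in both libraries, while Rps2 is 77.1% outside the class in replicate 1 and 1.5% in replicate 2.

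The exons of 11 members overlap another annotated gene, and 8 members hold 14 small nucleolar RNA genes on their own strand. Trappc4 and Ccdc84 overlap exons of Rps25, Vps52 those of Rps18, Kank3 those of Rps28 and Clhc1 those of Rps27a. Whether strand was used in the counting is not given in the sources used here, so reads from an overlapping gene cannot be told apart from those of the member. Among the 16 members below the gap 6 overlapped another gene, and among the other 13 there were 5.

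Promoters were compared by their letters. Of the 29 members, 25 had at least 1 promoter in the RefSeq table of GRCm38.p6, with 30 windows in all from 250 bases before to 50 bases after the annotated start. Pyrimidine-rich starts are known as the mark of messenger RNAs whose translation follows growth signals. The pentamer CTTCC was searched on the sense strand from 20 bases before to 30 after the start. So were the pentamer CTTTC and the pentamer CTCTT, whose matches can overlap, and 50% of the members' windows held at least 1, against 20.3% of all 32851 windows. CCGGAA, the core letters bound by ETS-family factors, was searched on both strands of the whole window and was in 50% of the members' windows and 14.9% of all windows. TATAA, searched on the sense strand from 45 to 16 bases before the start, was in 13.3% of the members' windows and 3.89% of all windows. Of the members at least 4-fold higher in replicate 2, 7 of 13 held a searched pentamer, 7 of 13 CCGGAA and 3 of 13 TATAA. Of the other members, 8 of 12 held a searched pentamer, 7 of 12 CCGGAA and 1 of 12 TATAA. Other pyrimidine runs were not searched, so these counts do not tell which starts are pyrimidine-rich.

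Start windows of 8 members are shown from both sides of the gap, each from 40 bases before to 20 bases after the annotated start. The searched pentamers are in capitals. Rps28 (chr17:33824543-33824602), Rps26 (chr10:128626487-128626546), Rps18 (chr17:33955646-33955705) and Rps12 (chr10:23787190-23787249) were at least 4-fold higher in replicate 2. Rps27 (chr3:90213629-90213688), Rps6 (chr4:86857348-86857407) and Rps10 (chr17:27635225-27635284) were higher in replicate 1, and Fau (chr19:6057907-6057966) was less than 2-fold higher in replicate 2. All are on the minus strand of GRCm38 except Fau, on the plus strand. Of the windows shown, 2 of the 4 from genes at least 4-fold higher in replicate 2 hold a searched pentamer, as do all 4 of the others. Over all members with a window the counts were 7 of 13 and 8 of 12. The window of Rps12 ends near an unbroken run of pyrimidines that matches none of the searched pentamers and is not in capitals. A run of letters is a description and not a site.
Rps28: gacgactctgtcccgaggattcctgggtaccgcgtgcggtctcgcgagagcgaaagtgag
Rps26: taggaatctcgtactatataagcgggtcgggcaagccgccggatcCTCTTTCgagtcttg
Rps18: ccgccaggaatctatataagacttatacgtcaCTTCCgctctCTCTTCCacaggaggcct
Rps12: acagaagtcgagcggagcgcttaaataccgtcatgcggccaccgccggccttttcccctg
Rps27: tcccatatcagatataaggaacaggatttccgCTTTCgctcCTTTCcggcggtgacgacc
Rps6: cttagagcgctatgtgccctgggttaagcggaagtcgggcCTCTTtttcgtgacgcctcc
Rps10: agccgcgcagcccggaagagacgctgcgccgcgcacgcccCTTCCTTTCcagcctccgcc
Fau: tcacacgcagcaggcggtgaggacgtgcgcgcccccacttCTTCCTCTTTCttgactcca

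Rack1, a signalling scaffold on the head that is not in the list of members, had 219 TPM in replicate 1 and 3485 TPM in replicate 2, and its scaled counts were 13.8-fold higher in replicate 2.

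The large subunit genes are the set most like the members in function. The median level was 133 TPM over the 29 small subunit genes and 263 TPM over the 49 large subunit genes in replicate 1, and 1286 TPM and 335 TPM in replicate 2. The difference of median log2(TPM + 1), small minus large, was -0.98 in replicate 1 and 1.94 in replicate 2 (0.48 ± 2.06, SD, n = 2), so the subunit with the higher median was not the same in the libraries. This difference was not tested. Summed TPM was lower for the small subunit genes in both libraries, at 29685 against 95757 TPM for the large subunit genes in replicate 1 and 72453 against 147243 TPM in replicate 2. Rplp1, an acidic stalk protein, was the highest large subunit gene by mean, with 11283 TPM in replicate 1 and 31042 TPM in replicate 2. Rpl29 was the lowest, with 11.7 TPM in replicate 1 and 6.52 TPM in replicate 2.

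Of the 49 large subunit genes, 16 were higher in replicate 1, 30 were higher in replicate 2 and 3 lay within counting noise, with a median log2 ratio of -0.41. At least 4-fold higher in replicate 2 were 10 of the 49 (7 with total counts as library sizes), against 16 of the 29 small subunit members. Where the mean was 100 TPM or more, 62.5% of 24 members, 27.8% of 36 large subunit genes and 7.40% of 1486 genes other than the members were at least 4-fold higher in replicate 2. The mean takes in both libraries, so a gene can pass this filter through the library where it is high. Below 100 TPM in replicate 1, Rps3 (35.1 TPM), Rps27l (46.3), Rps9 (77.7), Rps20 (82.0), Rps21 (82.8) and Rps12 (85.9) passed through replicate 2. There they had 446, 258, 1286, 780.4, 1148 and 1814 TPM, in the same order. Rps4x, with 130.3 TPM in replicate 1 and 70.6 TPM in replicate 2, passed through replicate 1. How far the filter raised these shares was not tested. The shares are descriptions of 2 libraries, and whether they differ between the gene sets was not tested.

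**Figure D5:**
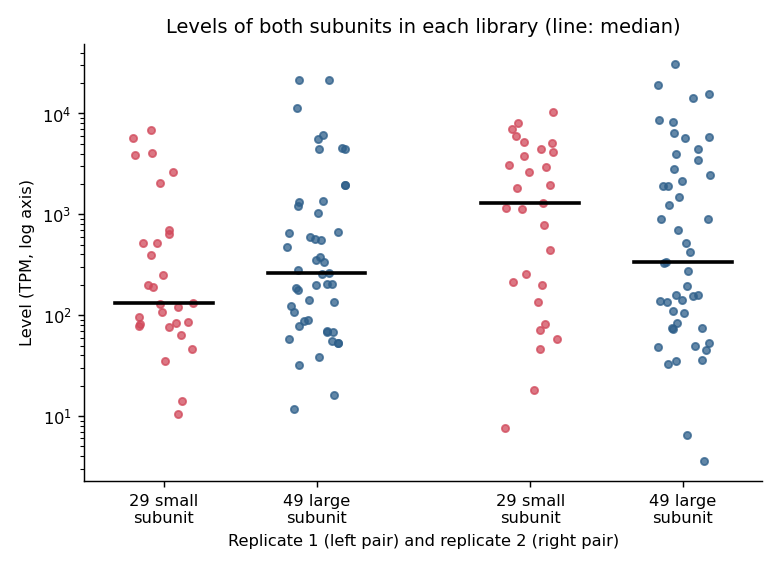
Level in TPM (log axis) of the 29 small subunit and 49 large subunit genes in replicate 1 (left pair) and replicate 2 (right pair), with each point a gene and the line the median. The small subunit median is 133 TPM beside 263 TPM in replicate 1 and 1286 TPM beside 335 TPM in replicate 2.

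Rps27a encodes a fusion of ubiquitin with a small subunit protein, so it was set beside Ubb, a polyubiquitin gene. Ubb had 196 TPM in replicate 1 and 2199 TPM in replicate 2, and was 9.56-fold higher in replicate 2 in scaled counts. Rps27a lay below Ubb in both libraries, with a log2 ratio of TPM of -1.05 in replicate 1 and -5.23 in replicate 2.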

How the data were processed

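RNA-seq of polyadenylated RNA was analysed from 2 libraries of 1 group. Per the README deposited with the tables, the authors aligned to mm10 and quantified on GENCODE M4 from transcriptome alignments. Which aligner and quantifier were used is not given in the sources used here. The authors deposited expected counts (estimated fragments per gene or transcript, not normalised), TPM, FPKM and each transcript's percent of its gene's TPM, with posterior mean versions. Coordinates, biotypes and transcript names came from GENCODE M21 on GRCm38, and may differ from the models counted. The 26248 numbered entries (1 count) and 97 other entries (no count) were left out.

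Expected counts were rounded and tested gene by gene by an exact conditional binomial test, two-sided, on TMM library sizes (edgeR 4.0.16; factors 1.06 and 0.942 for replicates 1 and 2), with Benjamini-Hochberg adjustment at 0.05 over genes with a summed count of at least 20. With 1 library a side, a quasi-likelihood fit would leave no residual degrees of freedom, so the p-values cover counting noise only. The test was run on simulated libraries with counting noise only and known folds. This does not show how it behaves on libraries as far apart as these. Ratios of scaled counts are replicate 1 over replicate 2 with a prior count of 2. On the TPM scale the log2 ratio of a gene lay 0.35 higher at the median than on scaled counts. Levels are mean ± SD over 2 libraries, and log2 levels use a pseudocount of 1. The README does not state the level of the authors' interval bounds, which were not used for tests. Copies were found with BLAST+ 2.17.0. DESeq2 1.42.0 gave alternative size factors. Limits at a count of 0 use 3 counts and cover counting error only.

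The members and gene lists were chosen with earlier results of these data known. Named were all members, other small subunit and ubiquitin genes (some of which are not reported here), the highest and lowest gene of the large subunit, assembly factor and translation lists, Tsr2, Pdcd2 and Gata1, and leading transcripts below 80% or differing between libraries. Other genes and transcripts named here were chosen after their values were seen: Gp5 and the markers at 0, Med21, the overlapping genes, the largest copies, and Rps9-210, Rps19-206 and Rps27a's second transcript where they fall outside that rule.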

Additional observations from a re-analysis of the deposited data

How the results depend on the processing

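The count of members higher in replicate 1 (10) and in replicate 2 (19) was the same with total counts, DESeq2 median-ratio size factors, posterior mean counts, no filter on low counts and with copies added. It was 7 and 22 when only protein-coding transcripts were counted, an alternative chosen, like the sum with all copies and the counts by list under both, after seeing the data. Then the log2 ratio, replicate 1 over replicate 2, was -0.60 for Rps19, -1.80 for Rps2 and -0.10 for Rps10. The number of members at least 4-fold higher in replicate 2 was 16, or 15 with total counts and 15 with protein-coding transcripts only. The members' median log2 ratio of -2.54 moved to -2.36 with total counts, to -2.17 with all copies added and to -2.03 with protein-coding transcripts only. Total counts also moved the median of all tested genes, from -0.06 to 0.11. In single members, 200 of 203 ratios under 7 alternatives kept direction and call. Of 116 mean TPM values under 4 alternatives, 115 stayed within the SD over libraries, the exception being Rps7 with FPKM (167). Leaving out replicate 1 and leaving out replicate 2 were among these alternatives. With 2 libraries, the level in either always lies within this SD of the mean. Those values could not move, so they tell nothing of how stable the levels are. With 1 library left out, small minus large subunit ran from -0.98 to 1.94, Rps27 over Rps27l from -3.83 to 0.46, the members' median from 133 to 1286 TPM and their share of TPM from 2.97% to 7.25%, so replicate 1 or 2 alone decides each. With posterior mean percentages 5 members, not 4, had different leading transcripts. No paired analysis was possible because the labels give 1 group.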

Other observations

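Genes of factors that assemble the small subunit had lower median RNA levels than the members, but the ranges overlapped. The members' medians were 133 TPM in replicate 1 and 1286 TPM in replicate 2. The 16 measured genes of 17 listed had a median of 33.6 TPM in replicate 1 and 48.2 TPM in replicate 2, with sums of 1004 TPM (replicate 1) and 1065 TPM (replicate 2). Of the 16, 5 were higher in replicate 1, 10 were higher in replicate 2 and 1 lay within counting noise (6 higher in replicate 1 and 0 within noise with total counts), with a median log2 ratio of -0.40. The highest was Emg1, a methyltransferase of the ribosomal RNA of the small subunit, with 227 TPM in replicate 1 and 253 TPM in replicate 2. The lowest was Riok3, a kinase of late small subunit assembly, with 2.60 TPM in replicate 1 and 4.20 TPM in replicate 2. Tsr2, the chaperone of Rps26, had 6.94 TPM in replicate 1 and 11.5 TPM in replicate 2 and was 1.96-fold higher in replicate 2 in scaled counts, while Rps26 was 19.1-fold higher. Pdcd2, the chaperone of Rps2, had 104.0 TPM in replicate 1 and 104.6 TPM in replicate 2. In scaled counts Pdcd2 was 1.08-fold higher in replicate 1, the opposite order from its TPM, and the direction of Rps2 depends on the transcripts counted.

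Other RNAs with pyrimidine-rich starts, most of them encoding translation factors and related proteins, lay closer to all tested genes at the median. Of 13 such genes, 6 were higher in replicate 1 and 7 in replicate 2, with a median log2 ratio of -0.36 (-0.06 over all tested genes), and 2 were at least 4-fold higher in replicate 2. The highest by mean was Tpt1, the gene of the translationally controlled tumor protein. It had 3351 TPM in replicate 1 and 2101 TPM in replicate 2, but its log2 ratio of scaled counts was -0.36, so the direction of Tpt1 depends on the scale. The lowest was Gas5, a host gene of small nucleolar RNAs, with 24.4 TPM in replicate 1 and 15.4 TPM in replicate 2. Whether these lists differ from the members was not tested.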
